A study of Mus musculus with 7 samples.

Results

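The insulin-like growth factor (IGF) receptors and binding proteins were measured in 7 single-cell RNA libraries of mouse liver, NEJ634, NEJ638, NEJ709, NEJ723, NEJ654, NEJ677 and NEJ687. The members were taken by symbol from the gene list shared by the libraries and made up 10 of its 32285 genes: the ligand Igf1, the receptors Igf1r and Igf2r, and the binding proteins Igfbp1 to Igfbp7.

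The study modelled hepatoblastoma, a liver cancer of childhood, in C57BL/6J mice that carried Alb-Cre, a Cre recombinase under an albumin enhancer and promoter, together with CAG-STOP-flox-Myc, a human c-MYC transgene held silent by a floxed stop. Cre removes the stop in cells that use the albumin promoter, so c-MYC is driven in the hepatocyte lineage and in any cell that descends from it, and the compound genotype was called ABC-Myc. Tissue was dissociated with collagenase and loaded on 10x Genomics 3′ v3.1 chemistry. The text of the study calls NEJ634, NEJ687, NEJ709 and NEJ723 tumors and also describes 3 healthy livers, whereas the labels describe every library as a murine model of hepatoblastoma, give no age, and attach the name NEJ634 to the description of NEJ709. The other 3, NEJ638, NEJ654 and NEJ677, would by elimination be the healthy livers, but no label says so. Normal controls in the study were littermates that lacked either transgene or both. As the labels give no such groups, the libraries were put in no group. No library was treated as a replicate of another, no test between groups was made, and the values of each library are given side by side.

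IGF1 and IGF2 are secreted peptides that bind IGF1R, a receptor tyrosine kinase that drives growth and survival through the PI3K and AKT kinases. IGF2R, also the cation-independent mannose 6-phosphate receptor, takes up IGF2 and carries it with lysosomal enzymes to the lysosome, and IGFBP1 to IGFBP6 bind IGFs with high affinity and set how much reaches the receptor, while IGFBP7 binds them weakly. The adult hepatocyte is the main source of circulating IGF1 under growth hormone, and it lacks appreciable IGF1R, so that the liver releases a hormone to which its own hepatocytes respond little.

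Levels are unique molecular identifier (UMI) counts of a gene summed over the cells of one class in one library, divided by all UMIs of those cells and scaled as CPM. Brackets give exact Poisson 95% intervals, which cover counting error only. Free RNA from broken cells reaches every droplet, so each level was set beside the ambient level, the CPM of the gene in the barcodes at ranks 45000 to 90000 by UMI count in the same library, and the share of free RNA in a pool was estimated from markers of other classes as an upper limit. This limit did not cover all RNA of other cells. Hbb-bs, a hemoglobin gene, was at 4303 CPM in hepatocyte-lineage-like cells of NEJ687, and 3214 CPM remained after the estimated share was subtracted. Where the rest came from was not tested. A level below the ambient level does not by itself say where its UMIs came from. A level printed without its ambient level may lie on either side of it. In NEJ634, 71066 barcodes had over 500 UMIs, so many barcodes of its ambient profile were above the minimum for a cell candidate, and whether they held cells was not tested. The deposited matrices held 40214395 to 132485391 UMIs per library, and 6576 to 16684 cells per library were analysed, 71005 in all. Cells fell into 43 clusters formed without the members and 31 other genes of the IGF pathway, and clusters were named from 166 marker genes of 19 cell classes, with the ending "-like". A class was used in a library where it had at least 20 cells. In all 46761 cells were named and 24244 were not, among the latter 12914 of the 13989 cells of NEJ709.

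Barcodes called as cells in more than 1 library were counted before any level was read. In 4 of the 21 pairs of libraries they exceeded the number expected by chance overlap of barcodes, at 120 against 53.9 for NEJ709 and NEJ723, 191 against 14.4 for NEJ654 and NEJ677, 115 against 15.1 for NEJ654 and NEJ687, and 105 against 15.3 for NEJ677 and NEJ687. These cells were left out.

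The class names did not mean the same cells in every library. Hepatocyte-lineage-like cells numbered 5415 in NEJ634, 326 in NEJ638, 519 in NEJ654, 890 in NEJ677 and 245 in NEJ687, while NEJ709 and NEJ723 held 6 and 7 and were not used for this class. In NEJ634 and NEJ687 most of them lay in one cluster led by Fabp6, H19, Hamp and Afp, with Afp, the fetal alpha-fetoprotein, at 2226 and 1525 CPM. In NEJ638, NEJ654 and NEJ677 they lay in a pair of other clusters led by adult liver genes such as Mup3, Car3, Cyp2f2 and Cyp2e1, with Afp at 9.27, 1.62 and 2.15 CPM. The clusters of this pair held 18 and 305 cells in NEJ638, 233 and 286 in NEJ654, and 766 and 124 in NEJ677. Median UMIs per cell of the class were 8532.5, 1614 and 1900.5 in these libraries, and 2967 in NEJ634 and 14208 in NEJ687. The part of cluster mix and depth in the levels of this class was not tested. Alb, the albumin gene, was at 4148 and 3167 CPM in the first pair of libraries and at 40661, 55102 and 25389 CPM in NEJ638, NEJ654 and NEJ677. NEJ687 held 205 cells of the Afp-led cluster and 38 and 2 of the other clusters. Its levels pool these cells, so library and kind of hepatocyte-lineage cell were not separated here.

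Most of the 10 members had their highest median level over libraries in one of 3 tissue cell classes. Mesenchymal-like cells led for Igfbp3, Igfbp5, Igfbp6 and Igfbp7, hepatocyte-lineage-like cells for Igf1, Igfbp1 and Igfbp2, and endothelial-like cells for Igfbp4. The receptors were led elsewhere, Igf1r by basophil/mast-like cells and Igf2r by cholangiocyte-like cells. The cholangiocyte-like name covered different cells in different libraries, as given below. Over all analysed cells of a library, the members exceeded the ambient level beyond both intervals in 32 of 70 pairs of member and library, lay below it in 21 and overlapped it in 17. With an ambient profile from barcodes of 10 to 100 UMIs the first count was 16, so comparisons with ambient depend on which barcodes make the profile.

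**Figure D1:**
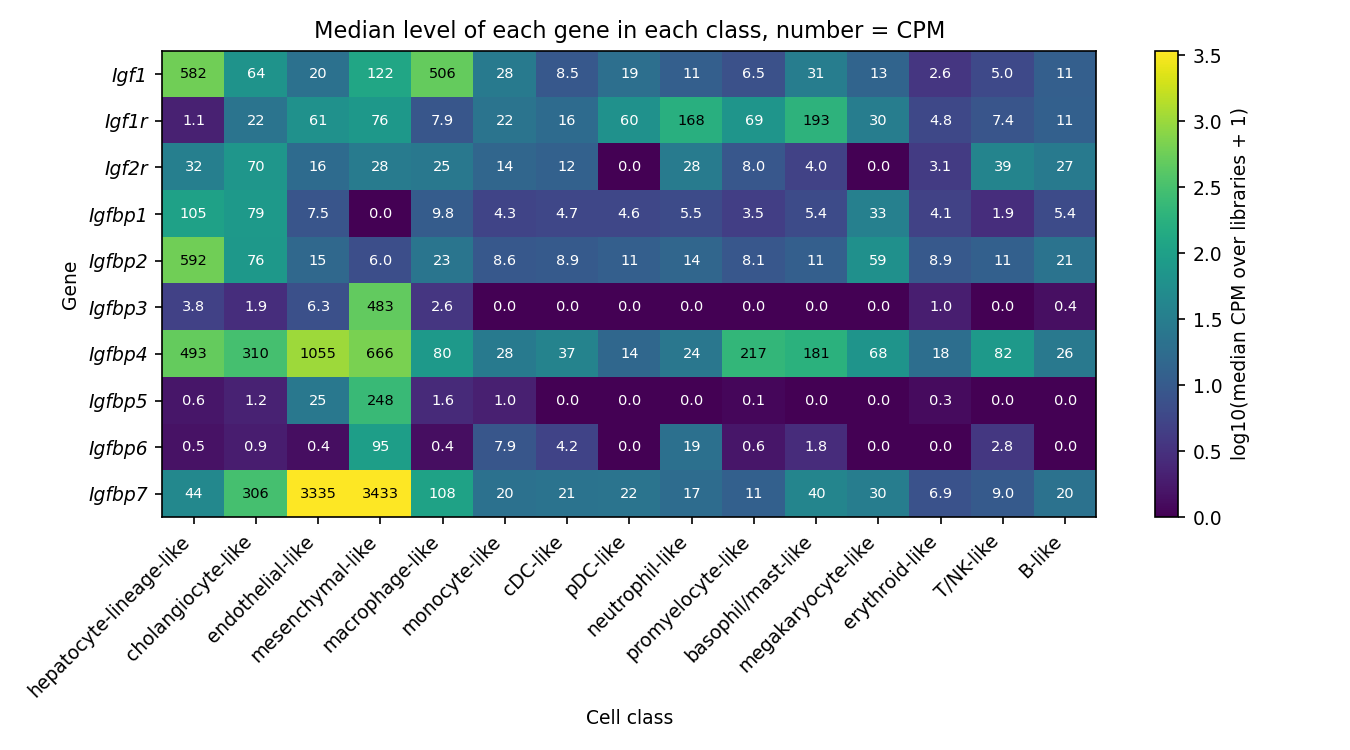
Median level of each member (rows) over the libraries that hold a class, for each cell class (columns); color is log10(median CPM + 1) and the printed number is the median CPM. Igfbp7 stands at 3433 CPM in mesenchymal-like and 3335 CPM in endothelial-like cells, while Igf1r stands at 1.08 CPM in hepatocyte-lineage-like cells.

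The binding protein genes lie in neighboring pairs. On GRCm38, in GENCODE vM21, Igfbp1 (ENSMUSG00000020429) is at chr11:7197782-7202546 on the plus strand and Igfbp3 (ENSMUSG00000020427) follows at chr11:7206086-7213923 on the minus strand. Igfbp2 (ENSMUSG00000039323) is at chr1:72824503-72852474 on the plus strand and Igfbp5 (ENSMUSG00000026185) follows at chr1:72857932-72874884 on the minus strand. In each pair, by median level, the first gene was led by hepatocyte-lineage-like cells and the second by mesenchymal-like cells. For Igfbp3 and Igfbp5 this did not hold in every library. In NEJ723 endothelial-like cells were at 658 and 805 CPM of these genes and mesenchymal-like cells at 291 and 7.65 CPM. Igfbp4 (chr11:99041244-99054392, plus), Igfbp6 (chr15:102144362-102149511, plus) and Igfbp7 (chr5:77349240-77408041, minus) stand apart from these pairs.

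Because Igfbp1 and Igfbp2 were both led by hepatocyte-lineage-like cells, the 250 bases before the RefSeq start of each are shown. They were read from RefSeq on GRCm38.p6, at chr11:7197537-7197786 and chr1:72824230-72824479, both on the plus strand, and capitals mark matches to the letters searched. For Igfbp2, RefSeq holds a second start, whose window had no match and is not shown.

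Igfbp1: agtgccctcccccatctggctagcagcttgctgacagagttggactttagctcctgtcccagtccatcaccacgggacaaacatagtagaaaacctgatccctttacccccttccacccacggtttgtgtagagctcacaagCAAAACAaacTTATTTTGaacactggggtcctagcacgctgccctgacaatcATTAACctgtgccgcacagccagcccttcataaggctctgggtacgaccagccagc

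Igfbp2: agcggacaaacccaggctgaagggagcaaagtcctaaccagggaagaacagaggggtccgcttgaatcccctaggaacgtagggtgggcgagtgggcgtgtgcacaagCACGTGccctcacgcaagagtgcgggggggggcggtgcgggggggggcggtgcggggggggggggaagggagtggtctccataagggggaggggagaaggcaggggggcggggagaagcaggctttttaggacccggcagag

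The letters searched, on both strands, were CAAAACA and TTATTTTG, which make up the insulin response element bound by FOXO factors, GTTAAT, the core of sites for the hepatocyte factor HNF1, and CACGTG, the E-box that MYC and other factors bind. The Igfbp1 window held CAAAACA at 108 to 102 bases before the start, TTATTTTG at 98 to 91, and GTTAAT on the minus strand at 56 to 51. Of 32851 such windows in the mouse, 5.56% held CAAAACA, 1.49% held TTATTTTG and 6.43% held GTTAAT. The Igfbp2 window held CACGTG at 142 to 137 bases before the start, as did 6.02% of all windows, and the Igf2r window (chr17:12769707-12769956, minus) held it at 48 to 43 and at 7 to 2. The windows of the other 7 members held none of these letters. A match describes letters and is no evidence of binding.

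Igf1 was high in hepatocyte-lineage-like cells of some libraries and in macrophage-like cells of all of them. The hepatocyte-lineage-like pool of NEJ638 was at 1441 CPM (1395 to 1488), with 753 CPM in NEJ654 (714 to 794) and 582 CPM in NEJ677 (556 to 609), each above its ambient level of 154, 289 and 286 CPM. In NEJ634 it was at 70.6 CPM (67.3 to 74.1) beside an ambient level of 76.9 CPM, and in NEJ687 at 15.15 CPM (11.7 to 19.3) beside 41.8 CPM. The estimated share of free RNA was at most 30.5% and 1.37% in these pools, and the levels with that share of the ambient profile subtracted were 47.2 and 14.6 CPM. The highest and lowest libraries differed 95.1-fold, and no interval of the 3 high libraries overlapped one of the 2 low ones. The low libraries are those in which the class consisted mostly of cells of the Afp-led cluster.

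Macrophage-like cells, the resident phagocytes of the liver and their relatives, held Igf1 in each of the 7 libraries. Their levels were 395 CPM in NEJ634, 642 CPM in NEJ638, 506 CPM in NEJ709, 324 CPM in NEJ723, 439 CPM in NEJ654, 535 CPM in NEJ677 and 581 CPM in NEJ687, all above the ambient level, which ran from 22.2 to 289 CPM. The highest and lowest libraries differed 1.98-fold. This narrow range held although the cells were of different clusters: those of NEJ638, NEJ654 and NEJ677 were almost all in a cluster led by Clec4f, Folr2 and Fcna, genes of resident Kupffer cells, and those of the other libraries were in clusters led by Cd5l, Mmp12 and Marco or by Cd5l, Marco and C1qc.

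The named cells that held most Igf1 UMIs therefore changed between libraries. These shares depend on which cells were captured and named: NEJ709 and NEJ723 held 6 and 7 hepatocyte-lineage-like cells. In NEJ709 the named cells held 324 Igf1 UMIs and the unnamed cells 933. Of the Igf1 UMIs of named cells, hepatocyte-lineage-like cells held 77.6% in NEJ638, 44.9% in NEJ654 and 54.1% in NEJ677. Macrophage-like cells held 56.3% in NEJ634, 79.9% in NEJ709 and 89.7% in NEJ687. In NEJ723, monocyte-like cells held 64.7%, with 1297 UMIs and a level of 211 CPM, against 21.0 to 75.0 CPM in monocyte-like cells of the other 6 libraries, of which only NEJ709 exceeded its ambient level, at 49.2 CPM beside 22.2 CPM. With finer clusters, at Leiden resolution 2, the monocyte-like cluster held 262 cells of NEJ723 and 400 were in an unnamed cluster led by Gpnmb, Spp1 and Trem2, genes of macrophages among them. Mesenchymal-like cells came next in the order of classes, at 104 to 362 CPM in 5 libraries with a median of 122 CPM, and those of NEJ654 and NEJ677, at 117 and 163 CPM, lay below the ambient level. By median level, hepatocyte-lineage-like (582 CPM) and macrophage-like cells (506 CPM) were not separated, since the range of the second fell inside that of the first.

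Igf1r, the signaling receptor, was low in hepatocyte-lineage-like cells and high in granulocytes. Among hepatocyte-lineage-like pools, NEJ634 was at 10.4 CPM of Igf1r, with 4.64 CPM in NEJ638, 1.08 CPM in NEJ654 and 0.710 CPM in NEJ687, and the 890 cells of NEJ677 held 0 UMIs, which allows up to 0.921 CPM at 3 counts. The ambient level in these libraries was 4.72 to 30.6 CPM, and none of the 5 pools exceeded it. With the estimated share of free RNA subtracted, NEJ634 was at 1.09 CPM and NEJ638 at 4.38 CPM.

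Neutrophil-like cells held Igf1r in all libraries, at 165 CPM in NEJ634, 248 CPM in NEJ638, 157 CPM in NEJ709, 168 CPM in NEJ723, 312 CPM in NEJ654, 318 CPM in NEJ677 and 141 CPM in NEJ687. NEJ638, NEJ654 and NEJ677 were the highest, and their intervals (202 to 302, 250 to 385 and 257 to 388) overlapped each other and none of those of the other 4 libraries. Neutrophil-like cells of these 3 libraries had medians of 921 to 1394.5 UMIs per cell, against 2810 to 6104 UMIs in the other 4, and the part of depth in the difference was not tested. Basophil/mast-like cells, present in 4 libraries, were at 80.8 CPM in NEJ634, 204 CPM in NEJ638, 337 CPM in NEJ723 and 182 CPM in NEJ687. Their range took in that of the neutrophil-like cells, so the first places in the order of classes were not separated.

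In the remaining order of classes for Igf1r, mesenchymal-like cells were at 49.1 to 154 CPM, promyelocyte-like cells at 44.9 to 104.5 CPM, endothelial-like cells at 32.9 to 95.5 CPM and plasmacytoid dendritic (pDC)-like cells at 31.3 to 95.6 CPM, with medians of 76.5, 68.9, 61.3 and 60.4 CPM. These 4 classes were not separated from each other. Macrophage-like cells, which held Igf1, were at 4.68 to 17.6 CPM of the receptor, T/NK-like cells at 2.53 to 20.7 CPM and erythroid-like cells at 3.73 to 11.7 CPM. In erythroid-like pools Hbb-bs alone took 233546 to 354167 CPM, which lowers the CPM of every other gene there. Endothelial-like cells held 67.5% of the Igf1r UMIs of named cells in NEJ638, 58.6% in NEJ654 and 64.5% in NEJ677. Neutrophil-like cells held 59.0% in NEJ709, 45.7% in NEJ723 and 64.3% in NEJ687. The share of NEJ709 is of 390 UMIs and leaves out its unnamed cells, 12914 of 13989. In NEJ634 the 5415 hepatocyte-lineage-like cells held the largest share, 20.4%. Promyelocyte-like cells held 17.9% and neutrophil-like cells 17.7% there.

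**Figure D2:**
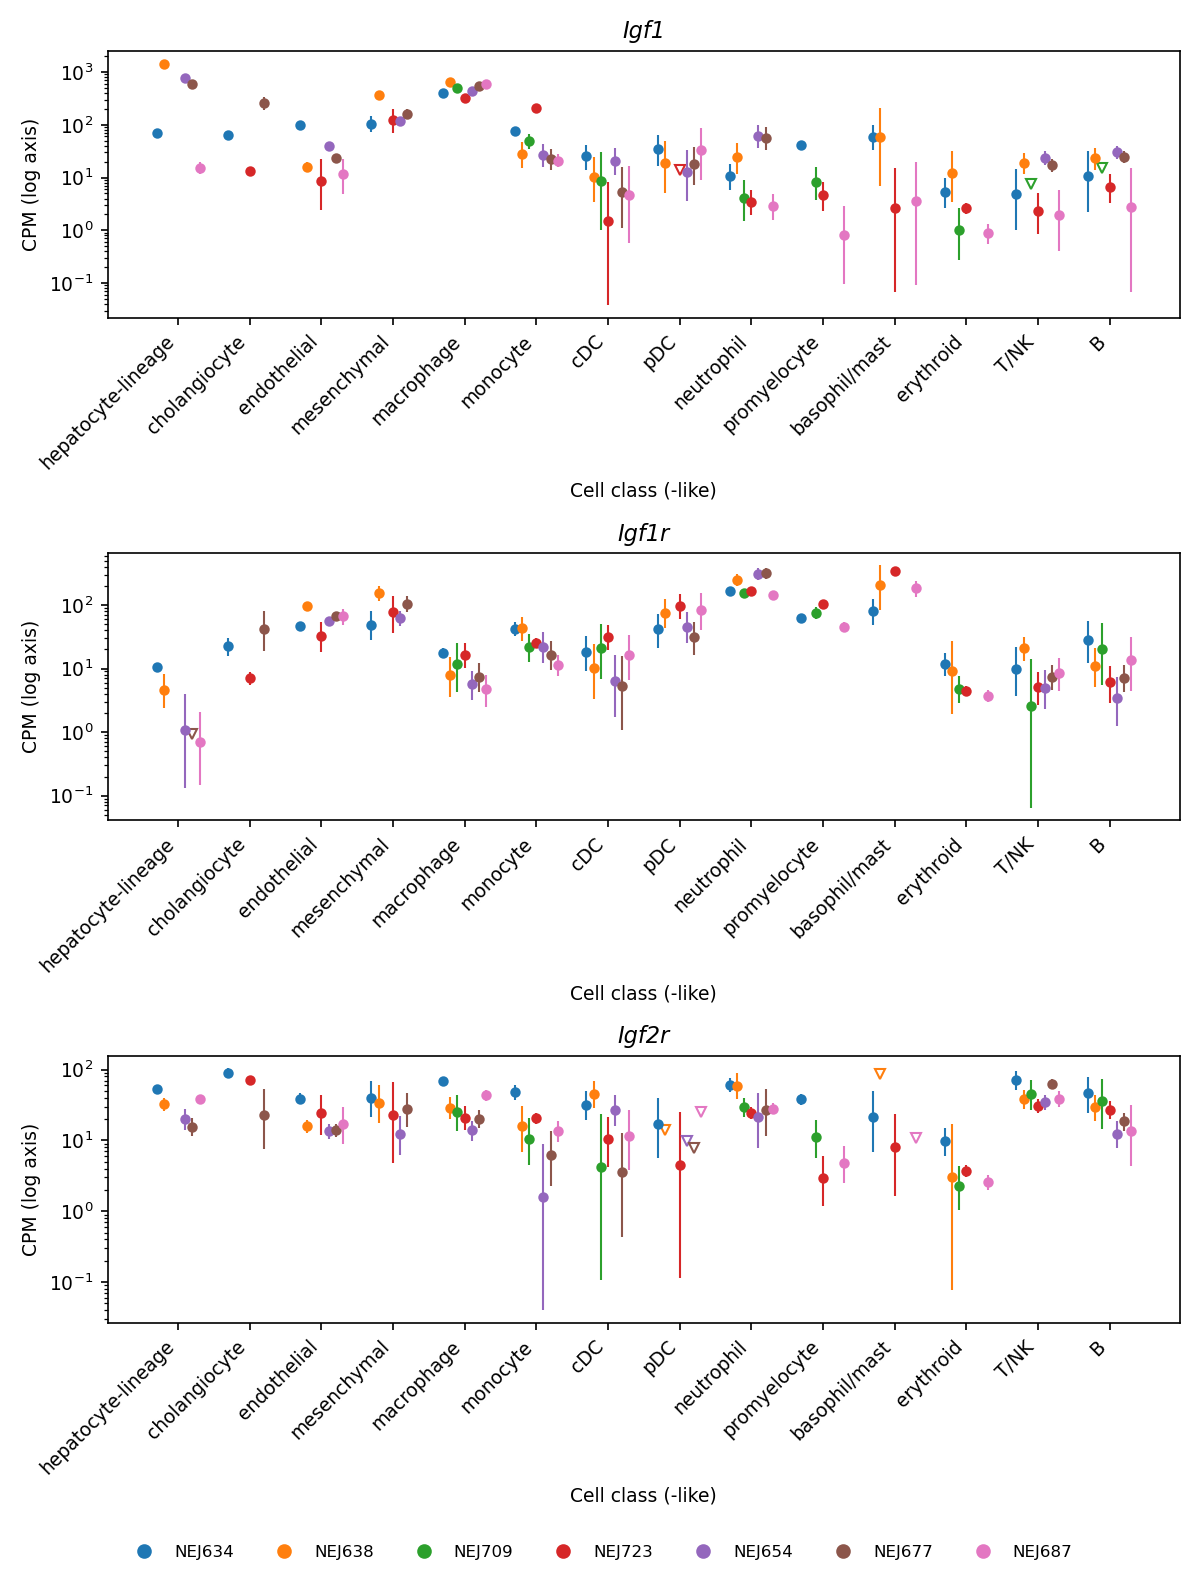
Levels of Igf1, Igf1r and Igf2r (CPM, log axis) in cell classes (x axis), 1 point per library with exact Poisson 95% intervals as bars; open triangles mark 0 UMIs and stand at the level of 3 counts. Igf1 of hepatocyte-lineage-like cells runs from 15.15 to 1441 CPM and that of macrophage-like cells from 324 to 642 CPM.

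Igf2r, which clears IGF2, was spread over many classes at low levels. Cholangiocyte-like cells were named from markers of bile duct epithelium. They were at 90.1 CPM in NEJ634 (76.2 to 106) and 70.3 CPM in NEJ723 (65.4 to 75.5). In the 21 cells of NEJ677 the level was 23.2 CPM (7.52 to 54.0). T/NK-like cells followed, at 71.0, 38.6, 45.6, 30.5, 34.6, 62.9 and 38.9 CPM in NEJ634, NEJ638, NEJ709, NEJ723, NEJ654, NEJ677 and NEJ687. In NEJ634 their interval overlapped that of the cholangiocyte-like cells, so the first 2 classes in the order were separated there by less than counting error. In NEJ677 the T/NK-like cells had the higher level, with overlapping intervals. Hepatocyte-lineage-like cells were at 52.8 CPM in NEJ634, 32.4 CPM in NEJ638, 20.03 CPM in NEJ654, 15.7 CPM in NEJ677 and 38.1 CPM in NEJ687, a 3.37-fold range. Unlike Igf1r, Igf2r was above the ambient level in each of these pools, which was 42.7, 7.68, 8.87, 8.30 and 13.6 CPM in the same order.

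The cholangiocyte-like cells of NEJ634 and NEJ723 also carried Afp, at 5451 and 2001 CPM, and Igf2, the ligand that Igf2r removes, at 1499 and 1518 CPM. Those of NEJ677 held 0 UMIs of either. The name of the class therefore covers different cells in these libraries. At Leiden resolution 2 the cholangiocyte-like cluster held 312 cells of NEJ634 and 2 of NEJ723, while an unnamed cluster led by Cldn7, Cldn6 and Bex1 held 195 and 270.

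Igfbp1 and Igfbp2 were the binding proteins led by hepatocyte-lineage-like cells, although Igfbp4 had more UMIs than Igfbp1 in all 5 pools of the class. IGFBP1 is a rapid regulator of IGF availability whose gene is held down by insulin, and IGFBP2 is the second most abundant binding protein of plasma. Igfbp1 was at 289 CPM in NEJ634 (282 to 296), 330 CPM in NEJ687 (313 to 348), 105 CPM in NEJ638 (92.6 to 118), 40.5 CPM in NEJ677 (33.9 to 48.1) and 18.4 CPM in NEJ654 (12.7 to 25.7). The 2 libraries with the lowest Igf1 thus had the highest Igfbp1, and the highest and lowest differed 17.9-fold. In NEJ654 the interval took in the ambient level of 12.8 CPM, and in the other 4 libraries the level was above its ambient level of 18.4 to 113 CPM.

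Igfbp2 varied less, at 671 CPM in NEJ634, 502 CPM in NEJ638, 592 CPM in NEJ654, 342 CPM in NEJ677 and 995 CPM in NEJ687, a 2.91-fold range. All of these exceeded the ambient level of 98.4 to 302 CPM. NEJ687 and NEJ634, of the Afp-led cluster, were the highest, and their intervals lay above those of the other 3. With the estimated share of free RNA subtracted, NEJ634 was at 592 CPM and NEJ654 at 590 CPM, and the order of these 2 was no longer clear. Cholangiocyte-like cells came second for both genes by median. Their Igfbp1 was at 258 CPM in NEJ634 (234 to 284), where the interval overlapped that of the hepatocyte-lineage-like cells, but at 79.4 CPM in NEJ723 beside an ambient level of 86.8 CPM and at 18.5 CPM in NEJ677 beside 18.4 CPM. Their Igfbp2, at 137, 75.7 and 46.3 CPM, lay below the ambient level in all 3 libraries.

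Summed over the 7 binding proteins, the level of hepatocyte-lineage-like pools came to 1392 CPM in NEJ634, 1963 CPM in NEJ638, 1480 CPM in NEJ654, 903 CPM in NEJ677 and 1796 CPM in NEJ687. These are counts of 3′ molecules, and capture may differ between genes, so shares of the sum were compared only between libraries. Igfbp1 made up 20.7% and 18.4% of it in NEJ634 and NEJ687 and 5.33%, 1.24% and 4.49% in NEJ638, NEJ654 and NEJ677. Igfbp4 made up 24.1% and 23.8% in the first pair and 66.3%, 47.3% and 54.6% in the latter 3. The shares thus fell into the same division as the clusters, while the sum itself did not.

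Large differences between libraries were common in hepatocyte-lineage-like cells. Of the genes with at least 10 CPM in a library, 33.2% had a highest level at least 4 times the lowest with intervals apart. Of the 8 members tested there, 5 met this rule, Igf1, Igf1r, Igfbp1, Igfbp3 and Igfbp7. Igf1r, Igfbp3 and Igfbp7 did not exceed their ambient level in any pool of the class. By the other rule, at least 4 times the level of all other named cells in every library, 2 of 6 members tested were called, Igfbp1 and Igfbp2, beside 7.3% of genes. Igfbp1 was 5.64 to 71.1 times and Igfbp2 6.43 to 89.6 times the level of the other named cells, lowest in NEJ634 and highest in NEJ687. Such folds, here and in the classes below, depend on which other cells were captured and named and on their free RNA. The level of Igfbp1 in the class was 289 CPM in NEJ634 and 330 CPM in NEJ687. Erythroid-like cells, among the other named cells, numbered 264 and 3407 there. The part of this mix in the folds was not tested. Igf1 failed the rule and was lowest in NEJ687, at 0.352 times.

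Igfbp4 was led by endothelial-like cells. IGFBP4 mostly holds back IGF action and is cut by the protease PAPP-A. Endothelial-like cells were at 579 CPM in NEJ634 (554 to 606), 1209 CPM in NEJ638, 816 CPM in NEJ723, 1139 CPM in NEJ654, 1105 CPM in NEJ677 and 1005 CPM in NEJ687, all above the ambient level of 154 to 373 CPM and within a 2.09-fold range. NEJ634 was lowest and did not overlap any other library. Of its 1103 endothelial-like cells, 962 fell in a subset whose leading genes included the granulocyte genes Ngp, Camp and S100a8 and the fetal genes H19 and Afp, and the part of such RNA in its level was not tested.

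Igfbp4 was also found outside the endothelium. Hepatocyte-lineage-like cells were at 336 CPM in NEJ634, 1302 CPM in NEJ638, 699.5 CPM in NEJ654, 493 CPM in NEJ677 and 428 CPM in NEJ687, and in NEJ638 they exceeded the endothelial-like cells with intervals apart. Promyelocyte-like cells, precursors of granulocytes, were at 203 to 253 CPM in 4 libraries, whereas neutrophil-like cells were at 14.3 to 57.0 CPM in 7, so the ranges of these classes of one lineage did not overlap. Every neutrophil-like pool lay below its ambient level. The promyelocyte-like pools lay above it in NEJ634, NEJ709 and NEJ687, while the interval of NEJ723 took it in. The promyelocyte-like pool of NEJ634 also held Igfbp2 at 314 CPM, beside 13.9, 1.25 and 2.43 CPM in NEJ709, NEJ723 and NEJ687. The part of hepatocyte-lineage RNA in that pool was not tested. In cholangiocyte-like cells Igfbp4 was at 310.5 CPM in NEJ634, 392 CPM in NEJ723 and 116 CPM in NEJ677, the last below its ambient level.

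Igfbp7, a matrix-bound protein of vessels also called angiomodulin, was found chiefly in endothelial-like and mesenchymal-like cells. Endothelial-like cells were at 2052 CPM in NEJ634, 2360 CPM in NEJ638, 2634 CPM in NEJ723, 4950 CPM in NEJ654, 4271 CPM in NEJ677 and 4036 CPM in NEJ687. Mesenchymal-like cells were at 2183 CPM in NEJ634, 1921 CPM in NEJ638, 4765 CPM in NEJ723, 4732 CPM in NEJ654 and 3433 CPM in NEJ677. Which class was higher changed from library to library: endothelial-like cells in NEJ638, NEJ654 and NEJ677, mesenchymal-like cells in NEJ723, and neither in NEJ634, where the intervals overlapped. Cholangiocyte-like cells came next, at 65.2 to 579 CPM. Endothelial-like cells held 40.7% to 93.3% of the Igfbp7 UMIs of named cells in the 7 libraries, counting the 13 such cells of NEJ709.

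In endothelial-like cells, 5 of 9 members tested had a range of at least 4-fold between libraries, beside 21.7% of genes: Igf1, Igfbp1, Igfbp2, Igfbp3 and Igfbp5. For Igfbp1 and Igfbp2 every pool lay below the ambient level, and Igf1 exceeded it only in NEJ634, at 99.3 CPM beside 76.9 CPM. By the rule of every library, only Igfbp7 of 7 members tested was called, beside 6.48% of genes, at 10.2 to 244 times the other named cells. In macrophage-like cells, 4 of 7 members tested had such a range, beside 28.9% of genes, namely Igf2r, Igfbp1, Igfbp2 and Igfbp7, and 0 of 5 met the rule of every library, beside 1.98% of genes. Every macrophage-like pool lay below the ambient level for Igfbp1 and Igfbp2, and for Igfbp7 only that of NEJ709 exceeded it, at 143 CPM beside 65.8 CPM. Igf1 in macrophage-like cells failed it, from 2.01 times the other named cells in NEJ638, the lowest, to 131 times in NEJ687.

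Igfbp3, the main carrier of IGFs in plasma, was highest in mesenchymal-like cells in 4 of the 5 libraries that held them. Mesenchymal-like cells, the collagen-making and retinoid-storing cells of the liver, were at 221 CPM in NEJ634 (173 to 278), 522 CPM in NEJ638 (449 to 603), 291 CPM in NEJ723 (206 to 399), 872 CPM in NEJ654 (812 to 936) and 483 CPM in NEJ677 (424 to 548). These were 50.9 to 284 times the other named cells of the same library. In NEJ634 only 6 of the 72 UMIs lay in the subsets, described later, that held 44 and 40 of its 91 cells, and in NEJ723 the 38 UMIs came from 3 of 20 cells. Outside this class no pool exceeded 15.8 CPM, other than the endothelial-like cells of NEJ723 at 658 CPM.

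By median level Igfbp5 and Igfbp6 were also led by mesenchymal-like cells, but they varied far more. IGFBP5 binds matrix and is made by smooth muscle and fibroblasts, and IGFBP6 prefers IGF2. Igfbp5 was at 248 CPM in NEJ634 (197 to 309), 835 CPM in NEJ638 (742 to 936), 7.65 CPM in NEJ723 (0.194 to 42.6), 29.5 CPM in NEJ654 (19.3 to 43.3) and 495 CPM in NEJ677 (435 to 561). Igfbp6 was at 95.04 CPM in NEJ634 (64.6 to 135), 593 CPM in NEJ638 (515 to 679), 15.3 CPM in NEJ723 (1.85 to 55.3), 29.5 CPM in NEJ654 (19.3 to 43.3) and 708 CPM in NEJ677 (636 to 786). Of the Igfbp5 UMIs of named cells, mesenchymal-like cells held most in NEJ638 and NEJ677, at 69.76% and 56.29%. In NEJ634 their share of 31.64%, from 81 UMIs, was close to those of other classes. Endothelial-like cells held 30.47% there, from 78 UMIs, and hepatocyte-lineage-like cells 26.95%, from 69 UMIs. Endothelial-like cells held most in NEJ723, NEJ654 and NEJ687, at 84.95%, 78.85% and 90.57%. NEJ709 held 7 such UMIs. The mesenchymal-like pools of NEJ638 and NEJ677 were high for both genes and those of NEJ723 and NEJ654 low. The values of NEJ723 rested on 1 and 2 UMIs in 20 cells. Of the 10 members tested in mesenchymal-like cells, 5 had such a range, beside 18.7% of genes: Igfbp1, Igfbp2, Igfbp4, Igfbp5 and Igfbp6, of which Igfbp1 and Igfbp2 lay below ambient. Of 8 tested by the rule of every library, Igfbp3 and Igfbp6 were called, beside 3.08% of genes. The call of Igfbp6 rested in NEJ723 on those 2 UMIs, at 4.07 times the other named cells, and in NEJ654 on 26 UMIs of 1 cell.

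**Figure D3:**
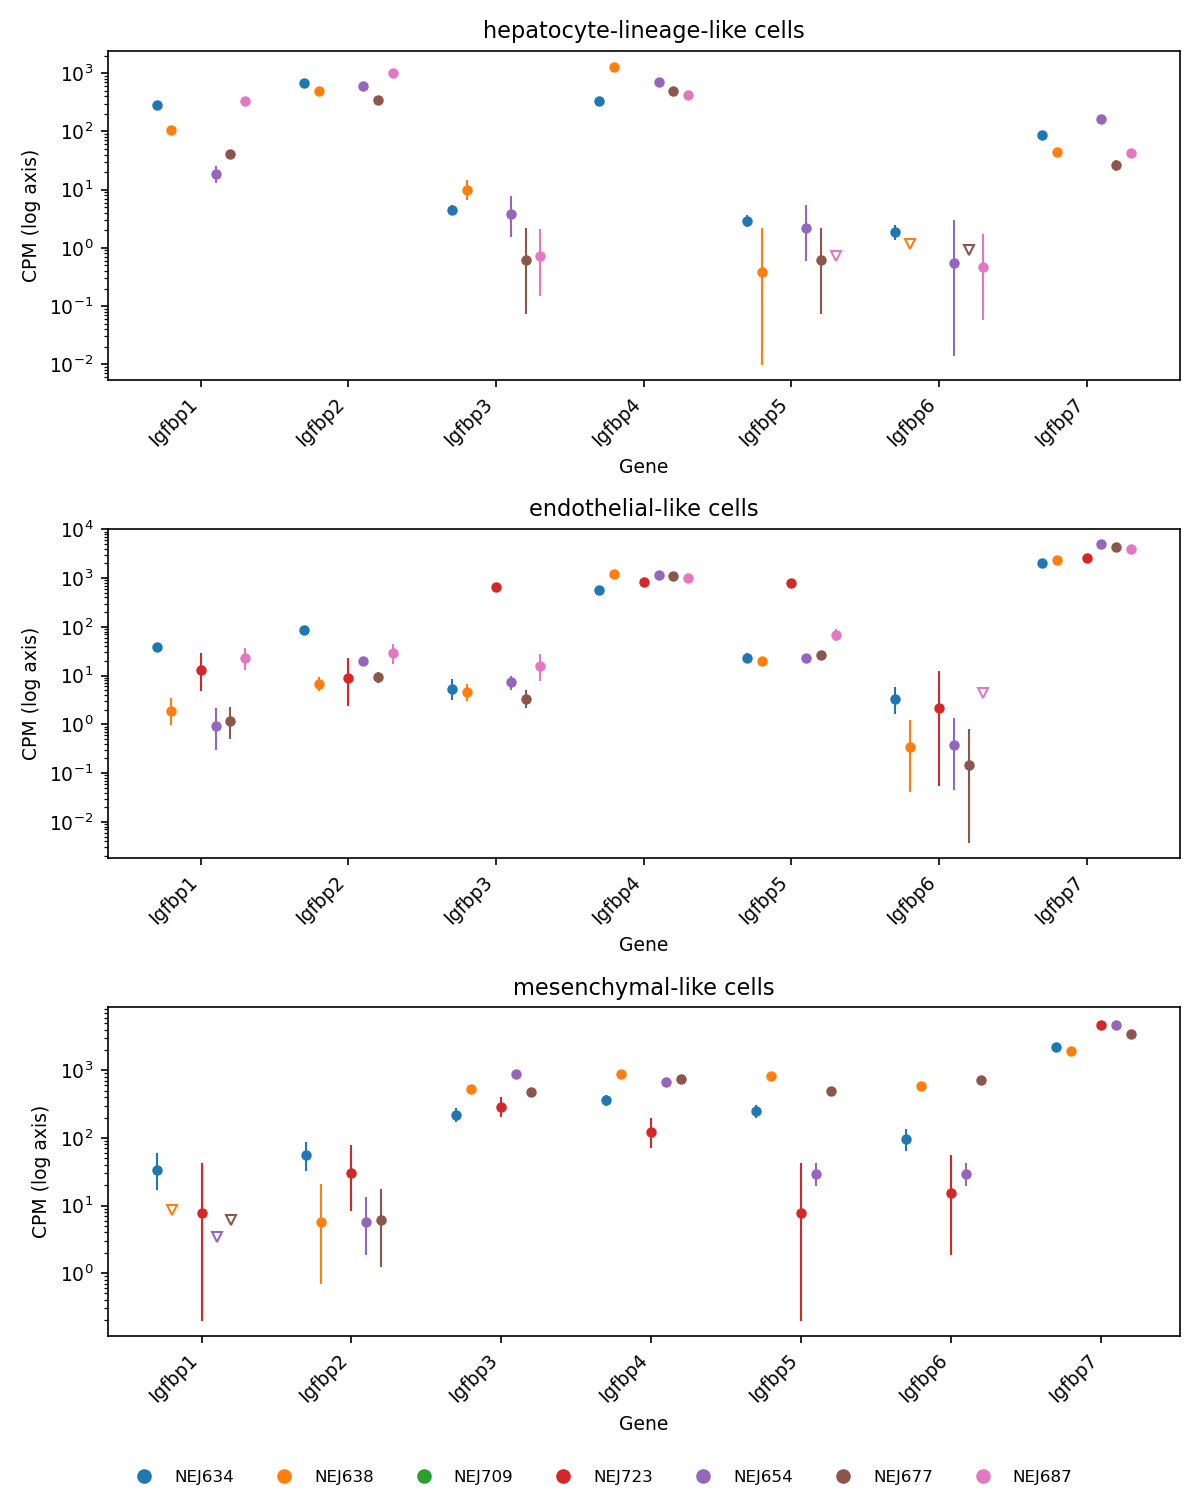
Levels of the 7 binding proteins (CPM, log axis) in hepatocyte-lineage-like, endothelial-like and mesenchymal-like cells, 1 point per library with exact Poisson 95% intervals; open triangles mark 0 UMIs at the level of 3 counts, and NEJ709 has no pool in these classes. Igfbp3 and Igfbp5 of NEJ723, at 658 and 805 CPM, stand above the other endothelial-like pools.

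The mesenchymal-like class held only 346 cells and was divided again, without the members, into 10 subsets, which are described by their leading genes and were singled out after their values were seen. A subset of 12 cells was led by Slpi, Upk3b and Msln, with Msln at 2660 and Upk3b at 2863 CPM, both on the list of mesothelial markers, and with Lrat and Reln, genes of stellate cells, at 0. It came from 1 cell of NEJ634, 5 of NEJ638, 1 of NEJ654 and 5 of NEJ677. All 12 cells held Igfbp5 and Igfbp6, at 6608 CPM (554 UMIs) and 6262 CPM (525 UMIs), which were 85.0% and 84.8% of the UMIs of these genes in the class.

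The subset with the highest levels of the stellate cell genes Lrat, Reln and Colec11 held neither gene. In its 65 cells, mostly of NEJ654 and NEJ677, Lrat was at 675, Reln at 1252 and Colec11 at 2623 CPM. Igfbp3 was at 1241 CPM and Igfbp7 at 6207 CPM, and Igfbp5 and Igfbp6 were at 0 UMIs, which allows up to 7.76 CPM each. A further subset of 70 cells, led by the macrophage genes Cd163, Folr2 and Clec4f beside stellate genes, had Igfbp3 at 553 CPM and likewise 0 UMIs of Igfbp5 and Igfbp6, up to 4.17 CPM. Its median of 10452.5 UMIs per cell was above that of most subsets, and whether these barcodes hold more than 1 cell was not tested. Other subsets with stellate genes did hold Igfbp5, at 134 CPM in 17 cells with Lrat at 559.5 CPM, where 1 cell held all 12 UMIs, and at 78.1 CPM in 34 cells with Lrat at 250.5 CPM, where 2 cells held all 24.

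A subset of 24 cells, 21 of them of NEJ638, was led by Mfap5, Dpt, Mgp and Clec3b, genes of fibroblasts around vessels and the capsule. It had Igf1 at 1075 CPM (888 to 1291) and Igfbp6 at 692 CPM (543 to 869), and Igfbp3 at only 65.5 CPM. Igf1 in the other 9 subsets was at 22.4 to 176.5 CPM. Of the 91 cells of NEJ634, 44 and 40 fell in subsets led by S100a8 and by Car1, genes of blood cells, with Igfbp3 at 0 and 52.1 CPM. Genes of blood cells thus led the subsets that held most mesenchymal-like cells of that library. The amount of such RNA and its part in the values were not tested.

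**Figure D4:**
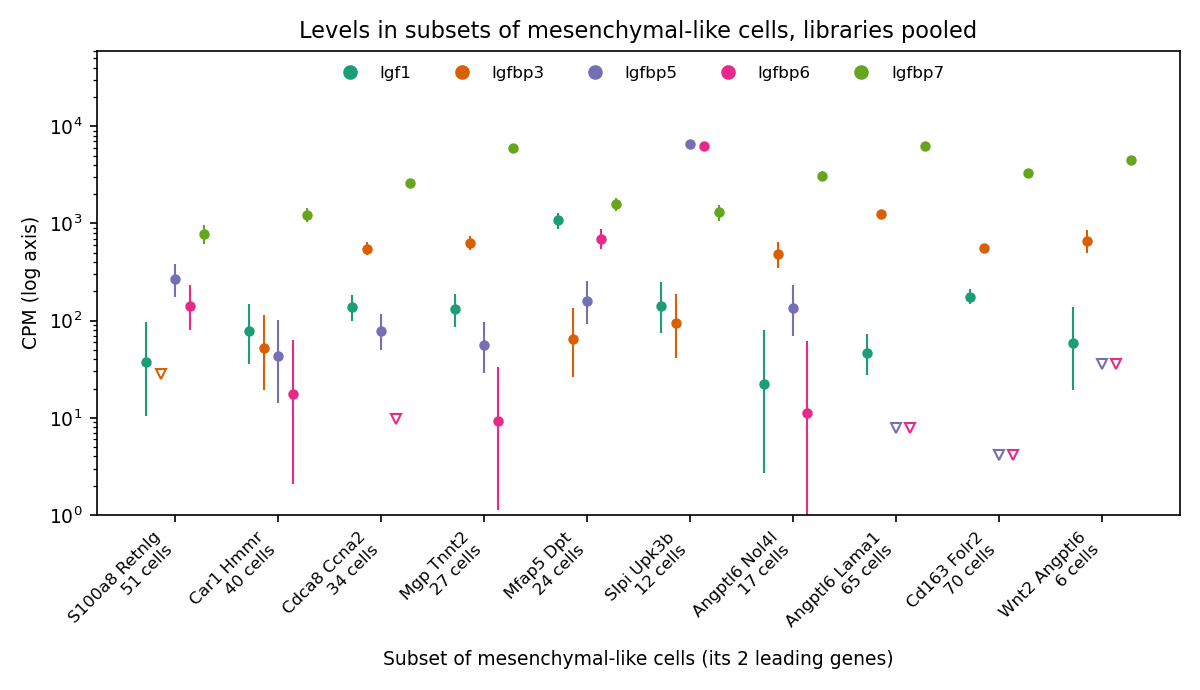
Levels of Igf1 and of binding proteins (CPM, log axis) in subsets of the 346 mesenchymal-like cells, libraries pooled, with exact Poisson 95% intervals. Open triangles mark subsets with no UMI of the gene, at the level of 3 counts, and subsets are named by their 2 leading genes. Igfbp5 and Igfbp6 peak in the Slpi and Upk3b subset, at 6608 and 6262 CPM, and Igfbp3 in the Angptl6 and Lama1 subset, at 1241 CPM.

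Without the 12 cells of the Slpi, Upk3b and Msln subset, Igfbp5 and Igfbp6 were lower in the 4 libraries that held such cells. This describes where the UMIs lay, since the subset was singled out with these values in view, and the libraries still differed. Igfbp5 fell from 835 to 107 CPM in NEJ638, from 495 to 0 CPM in NEJ677, from 29.5 to 0 CPM in NEJ654 and from 248 to 176 CPM in NEJ634. Igfbp6 fell from 593 to 193 CPM in NEJ638, from 708 to 13.5 CPM in NEJ677, from 29.5 to 0 CPM in NEJ654 and from 95.04 to 70.9 CPM in NEJ634. NEJ723 had no such cell. The levels of Igfbp3 and Igfbp7 were nearly the same with and without them, at 522 and 559 CPM of Igfbp3 and 1921 and 1984 CPM of Igfbp7 in NEJ638.

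The high Igfbp3 and Igfbp5 of the endothelial-like cells of NEJ723 lay in few cells too. Of the 77 cells, 13 belonged to a subset led by Gja5, Nrg1 and Ly6c1, in which Gja5, a connexin of arterial endothelium, was at 185 CPM over all libraries. In NEJ723 this subset had Igfbp3 at 2036 CPM (1796 to 2299), from 260 of the 300 UMIs and 8 of the 13 cells, and Igfbp5 at 1934 CPM (1701 to 2191). In the same subset of the other libraries, Igfbp3 was at 22.9 CPM in the 51 cells of NEJ638 and at 0 UMIs in NEJ634, NEJ654, NEJ677 and NEJ687, which allows up to 13.5 to 43.7 CPM. Igfbp5 was present there in every library, at 395 CPM in NEJ634, 440.5 CPM in NEJ638, 417 CPM in NEJ654, 467 CPM in NEJ677 and 262 CPM in NEJ687. Igfbp5 was thus found in this subset in all 6 libraries, and Igfbp3 at a high level in NEJ723, where its interval lay above those of the others.

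The subset is shown for these values, so leaving it out describes only where the UMIs lay. Without the 13 cells, NEJ723 was at 122 CPM of Igfbp3 (87.0 to 166) and 366 CPM of Igfbp5 (303 to 437). Both remained above the other 5 libraries with the subset in, at 3.35 to 15.8 CPM and 19.7 to 68.8 CPM. Igfbp4 and Igfbp7 hardly moved, at 816 CPM with and without the cells and at 2634 and 2543 CPM.

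Igfbp6 also had a place in white blood cells, lower by median level than in mesenchymal-like cells but not lower in every library. Neutrophil-like cells were at 19.2 CPM in NEJ634, 2.48 CPM in NEJ638, 17.7 CPM in NEJ709, 28.7 CPM in NEJ723, 68.2 CPM in NEJ654, 33.4 CPM in NEJ677 and 15.5 CPM in NEJ687, and led in NEJ709, NEJ723 and NEJ654 with an interval that overlapped that of the next class. In NEJ687, monocyte-like cells led with 46.3 CPM. The value of NEJ638 rested on 1 UMI.

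The rest of the pathway was read from 31 listed genes. In hepatocyte-lineage-like cells, 7 of 19 tested had a range of at least 4-fold, beside 33.2% of genes, and Igfals and Ghr were high in the 3 libraries in which Igf1 was. Igfals, the acid-labile subunit that holds IGF and IGFBP3 in plasma, was at 78.8, 99.6 and 50.6 CPM in NEJ638, NEJ654 and NEJ677 and at 2.52 and 5.68 CPM in NEJ634 and NEJ687. Ghr, the growth hormone receptor, was at 268, 191 and 223 CPM in the same 3 and at 38.6 and 29.8 CPM in the other pair. Both also met the rule of every library, 2 of 16 tested, beside 7.3% of genes.

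Of the other listed genes, Igf2, Grb10 and Igf2bp3, singled out after their values were seen, were higher in NEJ634 and NEJ687. Igf2 was at 2649 CPM in NEJ634 and 2458 CPM in NEJ687, at 0.772 CPM in NEJ638 and at 0 UMIs in NEJ654 and NEJ677. Grb10, an imprinted adaptor that restrains the insulin and IGF1 receptors, was at 210 and 195 CPM in NEJ634 and NEJ687 and at 23.6, 6.50 and 0.614 CPM in NEJ638, NEJ654 and NEJ677. Igf2bp3, an RNA-binding protein that binds Igf2 mRNA, was at 78.8 and 68.6 CPM against 28.6, 16.8 and 19.95 CPM. These are the libraries of the Afp-led cluster.

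In endothelial-like cells, 9 of 21 pathway genes tested had such a range, beside 21.7% of genes, and NEJ723, with the high Igfbp3 and Igfbp5, was highest for 5 of them. It held Insr, the insulin receptor, at 219 CPM against 51.7 to 102 CPM elsewhere, Grb10 at 414.5 CPM against 46.6 to 176 CPM, Stc1 at 59.2 CPM against 4.08 to 38.7 CPM, Stc2 at 72.4 CPM against 0.373 to 17.2 CPM, and Esm1 at 96.5 CPM against 1.04 to 68.8 CPM. For Stc1 and Esm1 the interval overlapped that of NEJ687. Stc1 and Stc2 are inhibitors of PAPP-A, the protease that cuts IGFBP4, and Esm1 is a distant relative of the binding proteins made by sprouting vessels. Stc1 was the 1 of 16 that met the rule of every library in this class, beside 6.48% of genes. In macrophage-like cells 6 of 17 had a range and 0 of 14 met that rule, beside 28.9% and 1.98% of genes. In mesenchymal-like cells 6 of 21 had a range, beside 18.7% of genes, and Htra1, a protease that cuts binding proteins, was the 1 of 16 that met the rule, beside 3.08% of genes, at 18.4 to 148 CPM. Ins1, Ins2, Pappa and Pappa2 had a median of 0 in every class present in at least 2 libraries.

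The genes whose levels followed each member most closely were found over 73 pools of at least 50 cells, among 14144 genes, by Pearson correlation of log2(CPM + 1). Pools of one library share its depth and free RNA, so the values are descriptive. Igfbp7 was closest to Sparc (r = 0.953), Ramp2 and Jam2, genes of endothelium and matrix, and Igfbp3 to Sparcl1 (0.889) and Eln. Igfbp5 was closest to AU021092 (0.899), Gja5 (0.896) and Bmper. Igfbp1 followed Tff3 (0.896) and S100g, Igfbp2 followed Smlr1 (0.908), Slc25a47 and Cth, and Igfbp4 followed Nfib (0.829). Igf1 was closest to Nr1h3 (0.865), Apoe and Apoc1, genes shared by hepatocytes and macrophages, and Igf1r to Hdc (0.767), the enzyme that makes histamine. Igf2r (Mov10, 0.758) and Igfbp6 (Pi16, 0.693) had looser matches. Among the members themselves, the closest pairs were Igfbp3 and Igfbp5 (0.839), Igfbp1 and Igfbp2 (0.747) and Igfbp5 and Igfbp7 (0.724), while Igf1 and Igf1r were at -0.131.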

How the data were processed

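For each of the 7 libraries the authors deposited a matrix of raw UMI counts, not normalized, in which empty barcodes remain. The file headers name Cell Ranger 4, the submitters' processing notes name Cell Ranger 6.0 and the methods of the study add that introns were counted, so which run made the matrices is not settled. The genome build is not given in the sources used here. Intron reads would raise the counts of long genes such as Igf1r.

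The cell calling followed the steps of Cell Ranger and took barcodes over the 99th percentile of the top 3000 divided by 10, then barcodes of at least 500 UMIs, at most 20000, that differed from the ambient profile of ranks 45000 to 90000 in a Monte Carlo test (10000 draws, false discovery rate of 0.01). Cells of at most 20% mitochondrial UMIs were kept. Barcodes called in more than 1 library were left out, and the highest Scrublet doublet scores were removed at 0.8% per 1000 cells. Median UMIs per cell ranged from 2084 to 4626 over the libraries before these last 2 steps. The limit of 20000 candidates was reached in NEJ634, NEJ709 and NEJ723. Clusters came from 2000 variable genes, 40 components, 15 neighbors and Leiden resolution 1 (scanpy 1.11.5, leidenalg 0.10.2, Python 3.11.15, numpy 2.4.6, scipy 1.17.1). A cluster was named where its markers averaged at least 1.5 in log2 fold and led the next class by 1, and it kept the name in a library where at least 3 markers reached 10 CPM and 2 times the cells outside the class. This removed the name exocrine in 6 libraries.

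The labels give no groups, so no comparison between groups and no paired test was made. A member was called between libraries at a highest level at least 4 times the lowest with exact Poisson 95% intervals apart, and in a class at 4 times the other named cells in every library that held it. The first rule, the leading class, the intervals and the cell calling were tested on simulated data, the second rule was not. Beside the members, the genes named were the 31 of the pathway list, the 3 of highest correlation for each member, cell markers and leading genes of clusters. The members and lists were chosen with earlier results of these data known. Alternatives in cell calling, doublets, shared barcodes, clustering, scaling, ambient profile, pool size and thresholds, and leaving out each library, are given in the closing section. Sequences came from RefSeq (GRCm38.p6) and coordinates from GENCODE vM21.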

Additional observations from a re-analysis of the deposited data

Results flagged for a closer look

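Cells that no marker list named were outside the comparisons, and each library held members there above the limit that a count of 0 allows. The member with most UMIs was Igfbp7 in NEJ634 (158 CPM in 4881 unnamed cells), NEJ638 (235 CPM in 1578 cells), NEJ654 (1216 CPM in 716 cells) and NEJ677 (818 CPM in 1088 cells). It was Igfbp4 in NEJ709 (75.0 CPM in 12914 cells), NEJ723 (88.9 CPM in 2291 cells) and NEJ687 (41.5 CPM in 776 cells). The 2 highest values, those of NEJ654 and NEJ677, lay above the ambient levels of 321 and 402 CPM. The unnamed cells of NEJ638, NEJ654 and NEJ677 included 240, 309 and 273 cells of one cluster led by Clec4f and Folr2, genes of liver macrophages, and by Dnase1l3 and Ptprb, genes of endothelium, with a median of 6396.5 UMIs per cell. Its part in these levels was not tested.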

How the results depend on the processing

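No value reversed. Of 93 results of alternatives for counts of members, 79 stayed within 1.5 times the main count and 14 did not, and of 115 for single levels, 85 stayed within the counting interval. The number of members led by mesenchymal-like cells, 4, was 2 with cells called by the percentile rule alone and 2 without the subset led by Slpi, Upk3b and Msln, an alternative chosen after seeing the data, and 3 to 4 with each library left out. The number led by endothelial-like cells, 1, was 3 with the percentile rule, 2 with doublets kept, with each library clustered on its own, with totals without hemoglobin and mitochondrial UMIs, or with at least 50 cells in a pool, and 1 to 2 with each library left out, 2 without NEJ723. The number led by macrophage-like cells, 0, was 1 with the mean of single-cell CPM and 0 to 1 with each library left out. It was 1 without NEJ638, NEJ654 or NEJ677, when Igf1 passed to macrophage-like cells. The number led by hepatocyte-lineage-like cells, 3, was 2 to 3 with each library left out. Pairs of member and library above ambient, 32, fell to 16 with an ambient profile from barcodes of 10 to 100 UMIs, and differences between libraries rose from 19 to 32 at a fold of 2. The cause of these changes was not tested.

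Over 21 alternatives Igfbp2, Igfbp3 and Igfbp4 kept their leading class in 21, Igf2r, Igfbp5 and Igfbp6 in 19, Igf1 in 17, Igfbp1 in 16, Igfbp7 in 15 and Igf1r in 14. With the percentile rule, the Afp-led cluster had no name and NEJ634 and NEJ687 left the hepatocyte lineage. At Leiden resolution 2, 3838 cells of NEJ634 led by the same genes were also unnamed, and a cluster of 1070 others stayed in the class, with Igf1 at 85.1, Igfbp1 at 320 and Igfbp2 at 781 CPM. Levels ranged over the alternatives from 254 to 576 CPM for Igfbp1 in NEJ634, and for Igfbp5 and Igfbp6 in mesenchymal-like cells of NEJ654 from 0 to 44.8 and from 0 to 40.5 CPM. No paired analysis was possible because the labels put no library in a group.

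Small pools limit depth, above all the 20 mesenchymal-like cells of NEJ723 and the 21 cholangiocyte-like cells of NEJ677.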
